A study of Mus musculus with 18 samples.

Results

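Mitochondria hold ribosomes of their own, which read the few messenger RNAs of the mitochondrial genome and place the products, subunits of the respiratory chain and of ATP synthase, in the inner membrane. The ribosomal RNAs of these particles are encoded in the mitochondrion, whereas each of their proteins is encoded in the nucleus, made in the cytosol and imported. Some of the proteins descend from bacterial ribosomal proteins and others exist only in mitochondria, and activated macrophages are known for shifting their energy supply from respiration to glycolysis. The genes described here are the protein-coding genes whose symbol begins with Mrpl (large subunit) or Mrps (small subunit) followed by a digit, which gave 78 of the 56748 genes in the count table. Of the 78, 51 belong to the large subunit, 26 to the small subunit and 1, Mrps36, is known as part of the 2-oxoglutarate dehydrogenase complex and not of the ribosome.

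The data were 18 RNA-seq libraries of mouse RAW264.7 cells, a macrophage line grown from a tumour, in 6 conditions of 3 biological replicates each. All 18 libraries are labelled WT (wild type) in the data, and how independent the replicates were is not described. The control cells had medium only, and a 2nd group was given 5 µM tert-butylhydroquinone (TBHQ), an antioxidant food additive that induces Nrf2 target genes, for 4 h. Further groups were given 0.1 µg/mL lipopolysaccharide (LPS, a ligand of TLR4) or 20 µg/mL polyinosinic:polycytidylic acid (PIC, a double-stranded RNA mimic) for 12 h, either without TBHQ or after 4 h of 5 µM TBHQ. As a model this is 1 immortalised line, and the cells given TBHQ alone were collected at 4 h and not at the time of the stimulated cells. The control belongs to the 12 h design, and for these libraries no control for the solvent of TBHQ is described. TBHQ and its solvent therefore cannot be told apart in any comparison. Library totals ranged from 14423390 to 18851626 counts. All 10 macrophage markers, among them Lyz2, Adgre1 and Csf1r, were at 1 FPKM or more in each of the 18 libraries. FPKM are sequenced fragments scaled to gene length and to library size, here with a further constant per library that is given below. Of the listed T cell, B cell, fibroblast, epithelial and endothelial markers, 0 reached 1 FPKM in any library.

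Of the 78 genes, 77 had enough counts to be tested. The exception, Mrpl53, a protein at the base of the stalk, had 0 counts in all 18 libraries. It lies at chr6:83086021-83086920 in the authors' coordinates inside the gene Gm42688 on the same strand, and 82.0% of the 50-base words of its transcripts also occur in other genes, most often Gm42688, so that a true level of 0 and a loss of its reads in counting cannot be told apart. The other members were mostly of middle level. The median over the 78 members of the mean FPKM was 19.3 in the control and 17.6 with TBHQ, and in stimulated cells it was 17.5 (LPS), 16.2 (PIC), 16.6 (LPS+TBHQ) and 17.1 (PIC+TBHQ), and 58 members reached 10 FPKM in the control. Together the members took 0.394% ± 0.00232 (SD, n = 3) of the counts of the control libraries, 0.379% ± 0.00327 with TBHQ, 0.336% ± 0.00799 with LPS and 0.300% ± 0.00288 with PIC. After TBHQ the shares were 0.343% ± 0.00641 (LPS+TBHQ) and 0.327% ± 0.00141 (PIC+TBHQ). Shares of counts also depend on the other genes of a library. Scaled by library totals, the median log2 fold change of all genes tested was -0.23 with PIC and -0.092 with LPS. The part of this in the members' shares was not tested. Fewer cells with a high level and less RNA per cell cannot be told apart in such bulk samples.

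Per length, the most abundant members in the control were Mrpl12, the stalk protein that draws translation factors to the ribosome, at 81.9 ± 5.32 FPKM (SD, n = 3), and Mrps21 of the small subunit at 78.0 ± 3.71 FPKM. They were followed by Mrpl2, a core protein of the large subunit, at 52.7 ± 1.80 FPKM, Mrpl41 at 48.3 ± 2.31 FPKM and Mrps6 at 47.1 ± 2.31 FPKM. Beside Mrpl53, the lowest were Mrps35, from the head of the small subunit, at 3.66 ± 0.195 FPKM and Mrpl48, from the central protuberance where both subunits meet, at 4.00 ± 0.338 FPKM. FPKM also depends on the transcript length the authors used.

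The comparisons of LPS or PIC with the control ask what 12 h of stimulation does to these genes. Most called members were lower, by small amounts. With LPS, 38 of the 77 tested members were lower and 4 were higher at a false discovery rate (FDR, Benjamini-Hochberg over all 13691 genes tested) below 0.05, where 24.1% of all genes tested were lower and 24.0% were higher. With PIC, 46 members were lower and 6 were higher, against 30.1% and 28.6% of all genes tested (58.7% in either direction, and 48.1% with LPS). As shares of the 77 members, 49.4% were lower and 5.19% higher with LPS, and 59.7% were lower and 7.79% higher with PIC. The members' median log2 fold change was -0.15 with LPS and -0.23 with PIC, against -0.0040 and -0.015 over all genes tested. Counted without a model, the 3 LPS libraries lay below the 3 control libraries for 40 members and above for 6, where this held for 27.0% and 26.8% of all genes tested. For PIC the same counts were 47 below and 6 above, against 32.2% and 30.6%.

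No member passed the threshold of the study (FDR below 0.01 and an absolute log2 fold change above 2) in these comparisons by edgeR, where 1.64% of all genes passed with LPS and 3.57% with PIC, and Mrpl52 with PIC was the only one whose log2 fold change exceeded 1 in size in any of the comparisons. The LPS and PIC comparisons share the 3 control libraries. Scaling by library totals instead of TMM (edgeR's trimmed mean of M-values) moved the median of all genes to -0.23 with PIC and to -0.092 with LPS. The members' own median under library totals was -0.44 with PIC and -0.24 with LPS. Its distance from the median of all genes, -0.21 with PIC and -0.15 with LPS, hardly depends on scaling, since scaling moves all genes nearly alike, and so says nothing on stability.

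**Figure D1:**
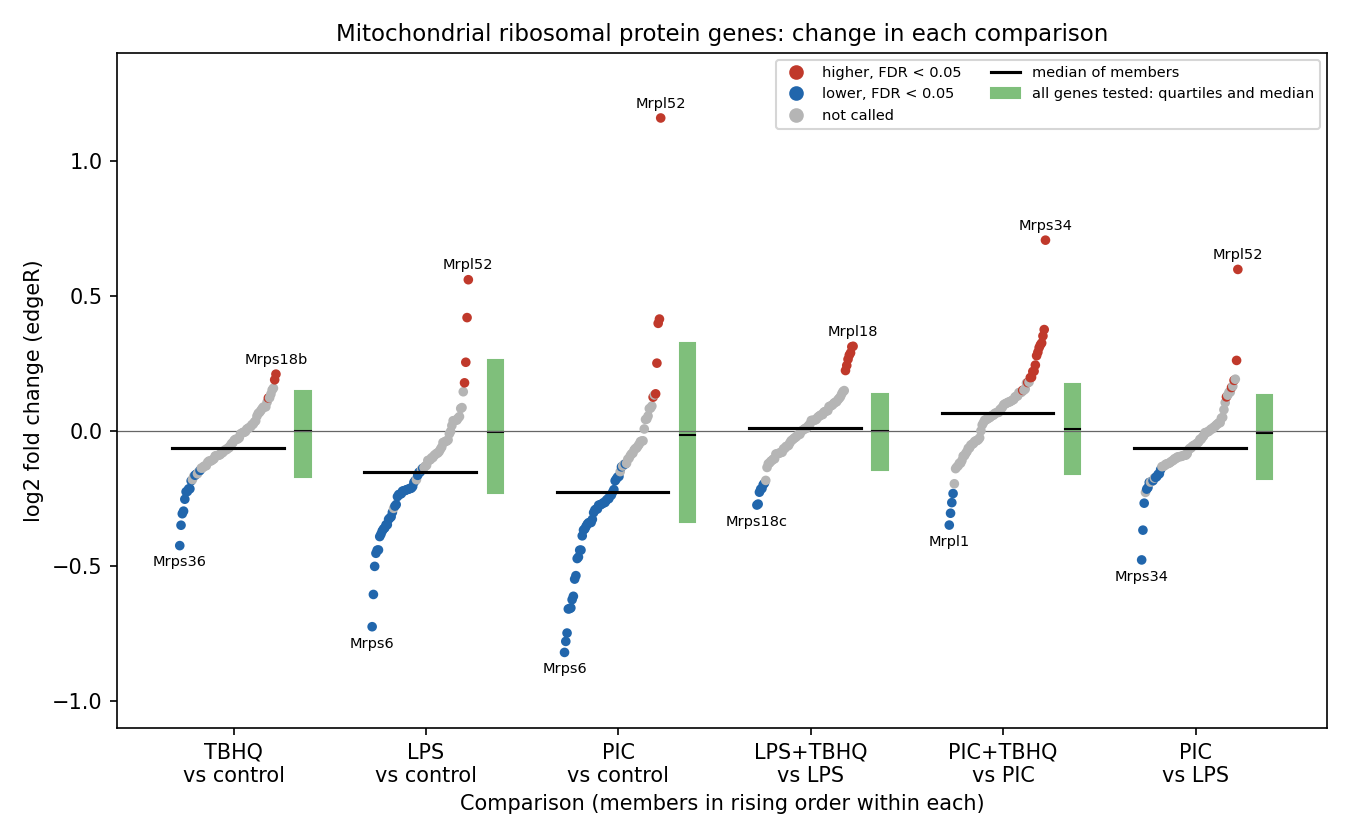
Log2 fold change (y axis) of the 77 tested mitochondrial ribosomal protein genes in 6 comparisons (x axis), each gene a point, red where higher and blue where lower at FDR below 0.05, with the members' median as a black line and the quartiles and median of all 13691 genes tested as a green bar. With PIC the members' median was -0.23 and Mrpl52 stood apart at 1.16.

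Both subunits took part. The shares of all genes tested to read these counts against are 24.1% lower and 24.0% higher with LPS and 30.1% and 28.6% with PIC. Of the 50 tested large subunit genes, 24 were lower and 4 were higher with LPS, with a median of -0.14, and 25 were lower and 4 higher with PIC, also with a median of -0.14. Of the 26 small subunit genes, 13 were lower with LPS, with a median of -0.19, and 20 were lower and 2 higher with PIC, with a median of -0.27. Of the 45 members with a bacterial counterpart, 25 were lower with LPS and 27 with PIC. Of the 30 tested members found only in mitochondria, 12 were lower with LPS and 17 with PIC. Whether these groups of members differ from each other was not tested. Among the 6 proteins of the central protuberance, 3 were lower with LPS and 5 with PIC, with a median of -0.22 in both. The 3 tested proteins along the path of the messenger RNA, Mrps5, Mrps12 and Mrps24, gave 2 lower with LPS and 3 with PIC. Around the exit of the nascent chain, the 8 members gave 2 lower and 2 higher with LPS and 2 lower and 2 higher with PIC (25% in each case), near the shares of all genes.

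In the stalk, Mrpl12 read 87.7, 80.8 and 77.3 FPKM in the control libraries, 56.5, 57.1 and 61.0 FPKM with LPS and 49.6, 54.3 and 53.5 FPKM with PIC. Every stimulated library lay below every control library. Its log2 fold change was -0.50 (SE 0.065, edgeR adjusted p = 1.4e-10) with LPS and -0.66 (SE 0.067, edgeR adjusted p = 8.7e-14) with PIC. Each SE here and below describes the spread of the replicate libraries and is not taken from the edgeR fit. The p beside an SE therefore does not follow from it. The partners of Mrpl12 had values nearer 0 with TMM factors. Mrpl10, which holds the Mrpl12 copies on the ribosome, read 30.1, 30.7 and 28.0 FPKM in the control, 28.2, 27.8 and 29.3 FPKM with LPS and 29.1, 26.1 and 29.4 FPKM with PIC, which overlap, with log2 fold changes of -0.067 and -0.084 that were not called. Mrpl11, at the base of the stalk, had log2 fold changes of -0.14 and -0.062, also not called. Under library totals both were called lower, Mrpl10 at -0.15 with LPS and -0.30 with PIC and Mrpl11 at -0.23 and -0.28.

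Mrpl18, a protein of the central protuberance that lies beside the structural transfer RNA, read 37.7, 38.1 and 37.1 FPKM in the control, 23.5, 26.1 and 25.2 FPKM with LPS and 23.1, 22.9 and 20.8 FPKM with PIC. All 6 stimulated libraries were below the control libraries, and none overlapped. The log2 fold change was -0.60 (SE 0.048, edgeR adjusted p = 4.8e-10) with LPS and -0.78 (SE 0.050, edgeR adjusted p = 7.0e-13) with PIC. Mrpl18 overlaps Tcp1 on the opposite strand by 645 bases. The methods describe the libraries as strand-specific and the labels name both kinds, and whether counting used the strand is not stated.

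Mrps6, a small subunit protein with a bacterial counterpart, had the lowest log2 fold change of the 77 in both comparisons. It read 49.0, 47.7 and 44.5 FPKM in the control, 29.8, 27.0 and 29.1 FPKM with LPS and 27.7, 29.2 and 24.4 FPKM with PIC, with no overlap between control and stimulated libraries. The log2 fold change was -0.72 (SE 0.058, edgeR adjusted p = 3.1e-12) with LPS and -0.82 (SE 0.089, edgeR adjusted p = 7.5e-14) with PIC. This value is uncertain, since Slc5a3, an inositol transporter gene, lies within the Mrps6 locus on the same strand. Slc5a3 was itself lower, with log2 fold changes of -0.77 with LPS and -0.71 with PIC. It was at 0.44 with TBHQ alone, 0.014 with TBHQ before LPS and -0.27 with TBHQ before PIC. The part of this overlap in the Mrps6 value was not tested.

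Mrps35, from the head of the small subunit, read 3.65, 3.47 and 3.86 FPKM in the control, 2.74, 2.69 and 3.05 FPKM with LPS and 2.12, 2.23 and 2.26 FPKM with PIC. The 3 groups did not overlap, and PIC was the lowest. Against the control its log2 fold change was -0.38 (SE 0.072, edgeR adjusted p = 1.1e-04) with LPS and -0.75 (SE 0.051, edgeR adjusted p = 5.4e-10) with PIC. Mrps21 read 82.1, 77.2 and 74.8 FPKM in the control, 54.7, 61.2 and 55.8 FPKM with LPS and 69.6, 68.2 and 59.9 FPKM with PIC. Both stimulated groups were below the control, by -0.45 (SE 0.066, edgeR adjusted p = 1.6e-07) with LPS and -0.26 (SE 0.080, edgeR adjusted p = 3.5e-04) with PIC on the log2 scale. Mrps12, a protein of the decoding centre, had a log2 fold change of -0.29 with LPS and -0.29 with PIC. Its control and stimulated libraries overlapped, and it was called with PIC only (edgeR adjusted p = 0.044), a call lost without any 1 of 5 libraries (all but control replicate 3), with values of -0.31 to -0.19, whereas LPS was called without control replicate 3 (-0.39) or LPS replicate 3 (-0.47) or with library totals (-0.37). The PIC call was also lost with RLE factors, at a mean of at least 50 counts, and by DESeq2 and limma (-0.27 to -0.24).

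The genes that rose with stimulation were few. Mrpl52, a large subunit protein found only in mitochondria, read 50.2, 48.8 and 42.2 FPKM in the control, 66.4, 67.7 and 74.9 FPKM with LPS and 112, 111 and 95.5 FPKM with PIC. The LPS libraries were all above the control, and the PIC libraries were all above those of LPS. The log2 fold change was 0.56 (SE 0.096, edgeR adjusted p = 6.7e-09) with LPS and 1.16 (SE 0.11, edgeR adjusted p = 1.1e-17) with PIC, and Mrpl52 was the most abundant member of all in the PIC libraries, at 106 ± 9.44 FPKM.

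Mrpl45, which ties the large subunit to the inner membrane beside the exit of the tunnel, read 25.9, 27.4 and 28.9 FPKM in the control, 36.6, 37.0 and 37.0 FPKM with LPS and 38.9, 37.0 and 35.2 FPKM with PIC. Stimulated and control libraries did not overlap, and the LPS and PIC libraries overlapped each other. Its log2 fold change was 0.42 (SE 0.046, edgeR adjusted p = 6.6e-09) with LPS and 0.41 (SE 0.063, edgeR adjusted p = 5.2e-09) with PIC. Mrpl24, at the rim of the same exit, read 34.5, 35.0 and 33.3 FPKM in the control, 39.5, 38.5 and 39.0 FPKM with LPS and 37.5, 38.6 and 37.4 FPKM with PIC. Both stimulated groups were above the control, by 0.18 (SE 0.023, edgeR adjusted p = 7.2e-04) with LPS and 0.13 (SE 0.027, edgeR adjusted p = 0.012) with PIC, and the PIC call was lost without control replicate 3 (0.10) and its value turned to -0.092 when scaled by library totals, under which the LPS call was lost as well (0.091). The PIC call was also lost without a filter on counts (0.13).

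Mrpl27, which reaches toward the peptidyl transferase centre, read 37.0, 35.6 and 40.3 FPKM in the control, 46.3, 43.4 and 45.9 FPKM with LPS and 49.5, 51.3 and 50.1 FPKM with PIC. All stimulated libraries were above the control libraries, with log2 fold changes of 0.26 (SE 0.058, edgeR adjusted p = 3.4e-04) and 0.40 (SE 0.054, edgeR adjusted p = 1.7e-07). Of its 50-base words, 22.3% occur in other genes, most often Gm6304, so reads may have been split. With PIC, Mrps18b and Mrps10, a protein of the small subunit head, were also higher, the latter by 0.14 (SE 0.034, edgeR adjusted p = 0.039). Mrps10 is named here because it completes the 6, after its values were seen. Scaled by library totals, the members higher with PIC numbered 3 and not 6, where 17.4% of all genes were higher, and Mrpl52, Mrpl45 and Mrpl27 were those 3.

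**Figure D2:**
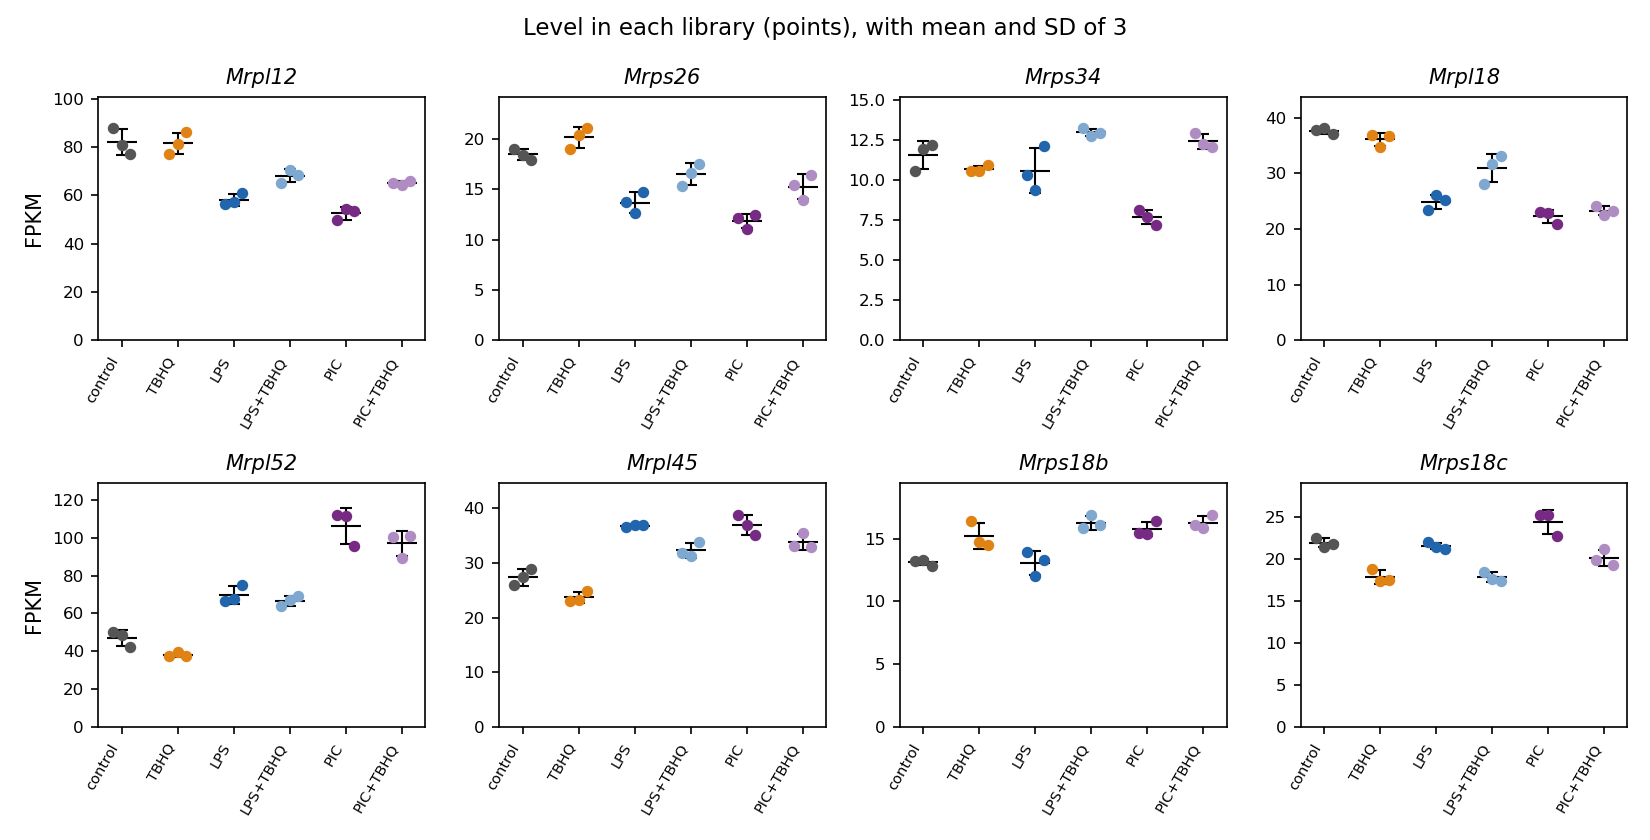
FPKM (y axis) of 8 members in the 18 libraries by condition (x axis), each library a point, with the mean and SD of 3 libraries in black and the y axis starting at 0. Mrpl12 was lower with both stimuli and in between with TBHQ added, whereas Mrpl52 was higher with both stimuli.

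With TBHQ alone for 4 h, the baseline at the time when stimulation began, few members were called. The control belongs to the 12 h design, so TBHQ, its solvent and the time of collection cannot be told apart here. At FDR below 0.05, 13 members were lower and 3 were higher, where 14.8% of all genes tested were lower and 14.2% were higher, and 61 were not called. The lower members made up 16.9% of the 77, near the background, and the higher ones 3.90%. The median log2 fold change was -0.063, against -8.6e-05 over all genes. The TBHQ libraries lay below all control libraries for 23 members and above for 9, where this held for 20.7% and 20.2% of all genes tested. No member passed the threshold of the study by edgeR, which 0.19% of all genes passed.

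Among the lower ones, Mrps36, the dehydrogenase component, read 21.6, 23.9 and 21.8 FPKM in the control and 14.7, 16.5 and 19.1 FPKM with TBHQ. The groups did not overlap, and the log2 fold change was -0.42 (SE 0.12, edgeR adjusted p = 1.7e-04). Mrpl41, a mitochondria-specific protein of the large subunit, read 51.0, 47.1 and 46.9 FPKM in the control and 40.4, 38.4 and 35.2 FPKM with TBHQ. Again the groups were apart, by -0.35 (SE 0.071, edgeR adjusted p = 1.1e-04). Mrpl52, which rose with both stimuli, was lower with TBHQ alone at 37.6, 39.4 and 37.3 FPKM, with a log2 fold change of -0.31 (SE 0.083, edgeR adjusted p = 8.5e-04). Likewise Mrpl45, at 23.0, 23.2 and 24.8 FPKM, was lower by -0.21 (SE 0.056, edgeR adjusted p = 0.0014), and Mrpl24, at 28.3, 30.0 and 29.8 FPKM, by -0.22 (SE 0.033, edgeR adjusted p = 1.2e-04). The 3 higher members were Mrps18b, Mrpl58 and Mrpl4, a core protein of the large subunit. Mrpl58, a peptidyl-tRNA hydrolase built into the large subunit, changed by 0.19 (SE 0.058, edgeR adjusted p = 0.043) and Mrpl4 by 0.12 (SE 0.022, edgeR adjusted p = 0.046). Leaving out single libraries left 0 (without control replicate 3) to 3 higher calls. That of Mrpl4 was lost without any 1 of the 6 libraries (0.10 to 0.14), that of Mrpl58 without control replicate 2 or 3 or TBHQ replicate 2 or 3 (0.15 to 0.19), and that of Mrps18b without control replicate 3 (0.20) or TBHQ replicate 1 (0.15). Mrpl58 (0.19 and 0.20) and Mrpl4 (0.12 and 0.13) were not called without a filter or by DESeq2.

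The effect of TBHQ before LPS was small in both directions. Compared with LPS alone, 7 members were higher and 7 lower with LPS+TBHQ, where 11.7% of all genes tested were higher and 12.2% lower, so that both shares of the members, 9.09% and 9.09%, were near the background. The median log2 fold change was 0.0099, against 0.0023 over all genes, and with 1 library left out it ranged from -0.0082 (without LPS+TBHQ replicate 3) to 0.031 (without LPS+TBHQ replicate 1). The LPS+TBHQ libraries lay above all LPS libraries for 14 members and below for 12, where this held for 17.8% and 18% of all genes. Mrpl18, which LPS had lowered, read 28.1, 31.7 and 33.1 FPKM with LPS+TBHQ, above the LPS libraries and below the control. The log2 fold change was 0.31 (SE 0.084, edgeR adjusted p = 3.1e-04). Mrps34, a mitochondria-specific protein of the small subunit, read 10.3, 9.35 and 12.1 FPKM with LPS and 13.2, 12.7 and 12.9 FPKM with LPS+TBHQ. These did not overlap, and the difference was 0.29 (SE 0.11, edgeR adjusted p = 0.0078), a call lost without LPS replicate 2 (0.21).

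Mrpl34, a large subunit protein with a bacterial counterpart, read 35.7, 42.7 and 42.7 FPKM with LPS and 47.7, 47.4 and 52.3 FPKM with LPS+TBHQ, again apart, by 0.28 (SE 0.099, edgeR adjusted p = 0.0094), a call lost without LPS replicate 1 (0.20) or LPS+TBHQ replicate 3 (0.23). Mrps18b was higher too. Among the lower members were Mrps18c, Mrpl13, a large subunit protein with a bacterial counterpart, Mrps6 and Mrpl30. Mrpl13 read 8.38, 9.07 and 8.46 FPKM with LPS and 7.15, 6.88 and 7.48 FPKM with LPS+TBHQ. All 3 LPS+TBHQ libraries were below the LPS libraries, with a log2 fold change of -0.27 (SE 0.052, edgeR adjusted p = 2.1e-04). Mrpl30 changed by -0.21 (SE 0.010, edgeR adjusted p = 0.0018) and Mrps6 by -0.23 (SE 0.044, edgeR adjusted p = 0.0098), a call lost without LPS replicate 1 (-0.20).

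More members were higher than lower with TBHQ before PIC. With PIC+TBHQ against PIC, 15 members were higher and 4 lower, where 15.8% of all genes tested were higher and 15.5% lower. As shares of the 77 members these were 19.5% and 5.19%. The median log2 fold change was 0.069, against 0.0089 over all genes tested. The PIC+TBHQ libraries lay above all PIC libraries for 25 members and below for 9, where this held for 21.2% and 20.4% of all genes. By subunit, 11 of 50 large and 4 of 26 small subunit genes were higher. Both counts depended on the settings. Without single libraries the higher count was 10 to 13 and the lower count 4 to 7, with 10 and 7 without PIC replicate 1, where 10.8% of all genes were higher and 14.1% lower. The lower count was 8 with median-of-ratios (RLE) factors (16.8% of all genes), 9 for genes with a mean of at least 50 counts (21.6%) and 7 by limma on FPKM values. Under library totals 31 were higher and 3 lower, where 24.8% of all genes were higher and 10.5% lower and their median was 0.078.

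Mrps34 had the highest value. It read 10.5, 11.9 and 12.2 FPKM in the control, 8.09, 7.71 and 7.21 FPKM with PIC and 12.9, 12.2 and 12.1 FPKM with PIC+TBHQ. The PIC libraries were all below the control and the PIC+TBHQ libraries all above PIC and overlapped the control. The log2 fold change was -0.61 (SE 0.080, edgeR adjusted p = 1.7e-07) for PIC against the control and 0.71 (SE 0.058, edgeR adjusted p = 4.0e-08) for PIC+TBHQ against PIC. Mrps34 shares 34.2% of its 50-base words with other genes, most often Nme3 on the same strand, which was counted at 0 in all libraries, and it also overlaps Mapk8ip3 on the opposite strand by 2387 bases, so its counts are uncertain.

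Mrps26, another mitochondria-specific protein of the small subunit, read 19.0, 18.5 and 18 FPKM in the control, 12.2, 11 and 12.4 FPKM with PIC and 15.5, 14 and 16.4 FPKM with PIC+TBHQ. The PIC+TBHQ libraries lay between the others without overlap. The changes were -0.65 (SE 0.057, edgeR adjusted p = 2.2e-11) for PIC and 0.38 (SE 0.086, edgeR adjusted p = 1.3e-05) for TBHQ before PIC. Mrpl12, with 65.2, 64.1 and 65.8 FPKM with PIC+TBHQ, took the same intermediate place, above PIC by 0.32 (SE 0.041, edgeR adjusted p = 6.2e-06). With LPS+TBHQ it read 65.2, 70.5 and 68.5 FPKM, above LPS by 0.22 (SE 0.048, edgeR adjusted p = 8.6e-04). These comparisons share the libraries of the stimulus alone with the comparison to the control, so a low value there by chance would show in both.

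Mrpl34 changed by 0.35 (SE 0.080, edgeR adjusted p = 0.0011) with TBHQ before PIC, and Mrpl57, a mitochondria-specific protein of the large subunit, by 0.33 (SE 0.043, edgeR adjusted p = 3.5e-04). The 4 lower members were Mrpl1, from the side where spent transfer RNA leaves, Mrpl13, Mrps18c and Mrpl32, a protein that the m-AAA protease trims before assembly. Mrpl1 read 9.11, 8.70 and 8.18 FPKM with PIC and 6.41, 6.62 and 7.18 FPKM with PIC+TBHQ. The groups were apart, by -0.35 (SE 0.068, edgeR adjusted p = 1.9e-04). Mrpl13 changed by -0.30 (SE 0.058, edgeR adjusted p = 3.3e-05) and Mrpl32 by -0.23 (SE 0.066, edgeR adjusted p = 0.024), a call lost without PIC replicate 3 (-0.18) or PIC+TBHQ replicate 1 (-0.24) or 2 (-0.23) or with library totals (-0.16). Of the members that PIC had raised, Mrpl52 read 101, 89.5 and 101 FPKM with PIC+TBHQ, which overlaps PIC, and its log2 fold change of -0.12 was called only without PIC replicate 3 (-0.21).

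Whether TBHQ acted differently before PIC than before LPS was tested as the difference of both effects. In edgeR 0 members were called, where 1.83% of all genes tested were called (0.825% higher and 1.01% lower). With p unadjusted, 10 members (13%) were below 0.05, against 14.2% of all genes tested, and the count called was 0 by DESeq2 and by limma on FPKM values and 2, Mrps34 and Mrpl38, under library totals, where 1.72% of all genes were higher. The lowest adjusted p was that of Mrps34, with a difference of 0.42 (SE 0.12, edgeR adjusted p = 0.062), and without LPS replicate 2 Mrps34 (0.48), Mrpl1 (-0.36) and Mrpl38 were called. Mrpl38 is named after its values were seen. The median difference of the members was 0.056, against 0.0091 over all genes, and it was 0.027 without LPS replicate 3 and 0.10 under library totals, where that of all genes was 0.053. Across the 77 members the effect of TBHQ in LPS and that in PIC, which share no library, had the same sign in 58, with Pearson r = 0.69 and Spearman rho = 0.67. Over all 13691 genes tested the sign was the same in 9941, with r = 0.59 and rho = 0.56, and genes are not independent replicates.

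Set directly against each other, PIC and LPS differed in 17 members. With PIC, 12 were lower and 5 higher than with LPS, where 12.8% of all genes tested were lower and 14.9% higher, and the median log2 difference was -0.064, against -0.0087. The PIC libraries lay below all LPS libraries for 22 members and above for 7, where this held for 17.9% and 19.2% of all genes. The count of lower members was 4 without LPS replicate 3 (9.65% of all genes, members' median -0.028), 6 without PIC replicate 1 (9.78%) and 44 under library totals (31.9%), where the median of all genes moved to -0.14. That of higher members was 3 without LPS replicate 1 (12.9%) and 1 under library totals (7.19%). Mrpl52 was the highest, by 0.60 (SE 0.094, edgeR adjusted p = 1.6e-09), followed by Mrps18b at 0.26 (SE 0.066, edgeR adjusted p = 0.0042). Mrps21, Mrpl20 and Mrpl9, which have bacterial counterparts, were the other higher ones, the latter pair by 0.16 (SE 0.053, edgeR adjusted p = 0.015) and 0.13 (SE 0.036, edgeR adjusted p = 0.028). Mrps34 was the lowest at -0.48 (SE 0.12, edgeR adjusted p = 7.0e-05) and Mrps35 next at -0.37 (SE 0.063, edgeR adjusted p = 9.9e-04). Mrps24, at the entry of the messenger RNA, differed by -0.27 (SE 0.055, edgeR adjusted p = 0.0056) and Mrps26 by -0.21 (SE 0.081, edgeR adjusted p = 0.011), calls lost without LPS replicate 3 (-0.22 and -0.16) and for Mrps26 also without PIC replicate 2 (-0.16). The calls of Mrps21 (without LPS replicate 1 or 3 or PIC replicate 1 or 2, 0.15 to 0.17), Mrpl20 (LPS replicate 1 or 2, 0.13 and 0.14) and Mrpl9 (LPS replicate 2 or PIC replicate 2 or 3, 0.10 to 0.12) were lost likewise. Under library totals Mrps18b (0.13), Mrps21 (0.058), Mrpl20 (0.032) and Mrpl9 (-0.0026) were not called, and neither were Mrpl20 and Mrpl9 without a filter (0.16 and 0.13) or Mrpl9 with the compared conditions only (0.13). Reads of Mrps24 may have been split with Urgcp, which overlaps it on the same strand.

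The 3 Mrps18 paralogs, of which only Mrps18c is counted above as having a bacterial counterpart, had these values. Mrps18a, whose protein sits in the large subunit despite its name, read 14.5, 13.5 and 13.2 FPKM in the control, 14.1, 13.6 and 14.8 FPKM with LPS and 14.4, 14 and 14.5 FPKM with PIC, which overlap, and it was not called in any comparison by edgeR with TMM factors. Under library totals it was called lower with PIC (-0.17) and higher with TBHQ before PIC (0.17). Mrps18b read 13.2, 13.3 and 12.8 FPKM in the control, 16.4, 14.7 and 14.5 FPKM with TBHQ and 15.5, 15.4 and 16.4 FPKM with PIC. Both were above the control without overlap, by 0.21 (SE 0.059, edgeR adjusted p = 0.017) with TBHQ (lost without control replicate 3, 0.20, or TBHQ replicate 1, 0.15) and 0.25 (SE 0.033, edgeR adjusted p = 0.002) with PIC (lost under library totals, 0.034). With LPS it read 13.9, 12.0 and 13.3 FPKM, which overlaps the control, and with LPS+TBHQ 15.8, 16.9 and 16.0 FPKM, above LPS by 0.31 (SE 0.066, edgeR adjusted p = 6.9e-04).

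Mrps18c moved the other way with TBHQ. It read 22.5, 21.5 and 21.8 FPKM in the control and 18.9, 17.3 and 17.5 FPKM with TBHQ. It was lower than its partner group wherever TBHQ was given, by -0.30 (SE 0.044, edgeR adjusted p = 0.0025) alone, -0.27 (SE 0.029, edgeR adjusted p = 0.0068) before LPS and -0.26 (SE 0.065, edgeR adjusted p = 0.0059) before PIC, without overlap in any of the 3. Of the 50-base words of Mrps18b 14.6% and of those of Mrps18c 19.2% occur in other genes, most often Gm13552 and Gm43511, so part of their reads may be split. Among members whose names mislead, Mrps30, in fact a large subunit protein, was called with TMM factors only for LPS+TBHQ against LPS, at -0.21 (SE 0.049, edgeR adjusted p = 0.042), and not without LPS replicate 1 or 2 or LPS+TBHQ replicate 2 or 3 (-0.21 to -0.19), nor without a filter, by DESeq2, by limma or under library totals (-0.21 to -0.17). PIC+TBHQ against PIC was called for it with RLE factors and at a mean of at least 50 counts (both -0.21). The same comparison was called without PIC replicate 1 or 3 or PIC+TBHQ replicate 1 or 2 (-0.26 to -0.23). Under library totals Mrps30 was also called lower with PIC against the control (-0.27). Mrps36 was lower with each stimulus, by -0.35 (SE 0.060, edgeR adjusted p = 9.3e-04) with LPS and -0.53 (SE 0.060, edgeR adjusted p = 1.8e-06) with PIC, and shares 17.3% of its words with other genes, most often Mrps36-ps1.

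The remaining machinery of mitochondrial translation was followed with companion lists, counted with TMM factors only. Of all genes tested, 24.1% were lower and 24.0% higher with LPS, 30.1% and 28.6% with PIC, 12.2% and 11.7% with TBHQ before LPS, and 15.5% and 15.8% with TBHQ before PIC. Of 5 ribosomal proteins with other names (Dap3, Ptcd3, Chchd1, Aurkaip1 and Gadd45gip1), 3 were lower with LPS and 4 with PIC. With TBHQ before the stimulus 1 was higher in LPS and 2 in PIC. Ptcd3 changed by -0.22 with LPS, -0.46 with PIC and 0.13 with TBHQ before PIC. Gadd45gip1, a large subunit protein despite a name from another field, changed by -0.62 with LPS, -0.50 with PIC, 0.55 with TBHQ before LPS and 0.40 before PIC. Dap3 was not called in any comparison.

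Of 26 genes for ribosome assembly and rRNA modification, 8 were lower (30.8%) and 4 higher (15.4%) with LPS, the lower share near that of all genes (24.1%), and 14 were lower (53.8%) and 3 higher (11.5%) with PIC, against 30.1% and 28.6%. TBHQ before PIC gave 6 higher (23.1%, against 15.8%) and 0 lower, and before LPS 1 higher (3.85%, against 11.7%) and 0 lower. Gtpbp10, a GTPase of large subunit assembly, changed by -1.06 with PIC and 0.54 with TBHQ before it, and Eral1, which chaperones the small subunit RNA, by 0.38 with TBHQ before PIC. Afg3l2, a subunit of the m-AAA protease, was higher with LPS (0.27), PIC (0.24) and with TBHQ before each (0.25 and 0.31). Of 15 translation factors and translation partners, 5 were lower (33.3%, against 24.1%) and 1 higher with LPS, and 7 lower (46.7%, against 30.1%) and 1 higher with PIC. Guf1, a GTPase related to elongation factors, was at -0.60 and -0.86, and Oxa1l, the insertase that receives new chains, at -0.20 and -0.47.

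The 17 mitochondrial aminoacyl-tRNA synthetases gave 8 lower with LPS (47.1%, against 24.1% of all genes) and 12 with PIC (70.6%, against 30.1%). Before LPS, TBHQ gave 6 higher and 1 lower, against 11.7% and 12.2% of all genes. Before PIC it gave 7 higher and 1 lower, against 15.8% and 15.5%. Vars2, the valyl enzyme, changed by -0.56 with LPS, -1.01 with PIC and 0.34 with TBHQ before PIC. Mars2, the methionyl enzyme, changed by -0.55, -0.92 and 0.42 in the same comparisons. Of 15 genes for mitochondrial DNA upkeep, transcription and RNA processing, 7 were lower with LPS (46.7%) and 8 with PIC (53.3%). Hsd17b10, a subunit of the mitochondrial RNase P, changed by -0.39 with LPS and -0.56 with PIC. Tfam, which packs the mitochondrial genome and takes part in its transcription, changed by -0.26 and -0.45.

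**Figure D3:**
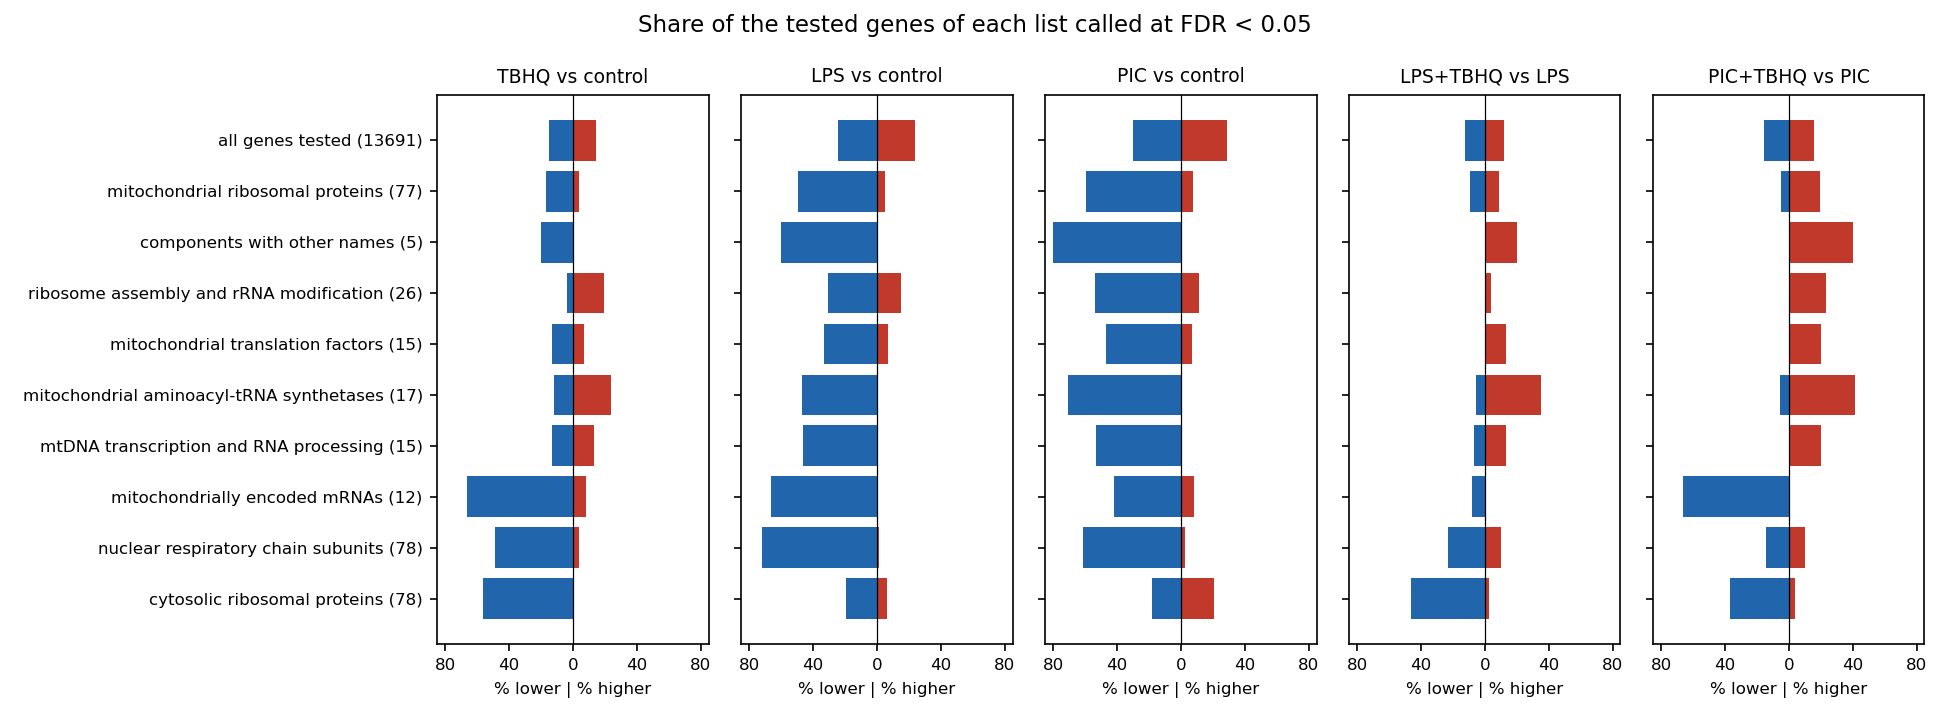
Percentage of the tested genes of each list (y axis, with the number tested) called lower (blue, to the left) or higher (red, to the right) at FDR below 0.05 in 5 comparisons (panels). Of the mitochondrial ribosomal protein genes 59.7% were lower with PIC, against 30.1% of all genes tested.

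The next list holds 78 tested nuclear genes for subunits of the respiratory chain and of ATP synthase. They gave 56 lower (71.8%, against 24.1% of all genes) and 1 higher with LPS. With PIC, 48 were lower (61.5%, against 30.1%) and 2 higher. Ndufs8, an iron-sulfur subunit of complex I, changed by -0.49 with LPS and -0.57 with PIC. With TBHQ alone 38 of them were lower (48.7%, against 14.8%) and 3 higher. The 12 tested messenger RNAs of the mitochondrial genome itself gave 8 lower with LPS, against 24.1% of all genes. With PIC 5 were lower and 1 higher, against 30.1% and 28.6%. For LPS+TBHQ against LPS 1 was lower (12.2% of all genes), and for PIC+TBHQ against PIC 8 were lower (15.5% of all genes). mt-Nd1 changed by -0.53 with LPS and -0.31 with PIC. The 78 cytosolic ribosomal protein genes gave 15 lower (19.2%) and 5 higher (6.41%) with LPS and 14 lower (17.9%) and 16 higher (20.5%) with PIC, each below the share of all genes. With TBHQ alone 44 of these were lower (56.4%, against 14.8%). TBHQ before LPS gave 36 lower and 2 higher, against 12.2% and 11.7% of all genes. Before PIC it gave 29 lower and 3 higher, against 15.5% and 15.8%.

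A further list holds factors known to regulate nuclear genes for mitochondrial proteins. Up to 3 called higher and 3 called lower are named per comparison, so the values below do not describe the list as a whole. Of all genes tested, 24.1% were lower with LPS and 30.1% with PIC. Nrf1 changed by -0.59 with LPS and -0.35 with PIC, and Gabpb2, a partner of the ETS factor Gabpa, by -0.42 and -0.38. The coactivator Pprc1 changed by -0.25 and -0.32. Ppargc1b, a related coactivator, was higher with TBHQ before LPS (0.40) and before PIC (0.64), and Ppargc1a was too low to be tested. Myc was higher with LPS (1.95) and PIC (1.69) and lower with TBHQ before each (-0.54 and -0.45). With TBHQ alone, Myc, Pprc1 and Nrf1 were called higher. Max was called higher with PIC. For TBHQ before PIC, Esrra was called higher and Gabpb2 lower. That the treatments took effect shows in Gclm, a glutathione synthesis gene, which rose by 1.82 with TBHQ, and in Nos2, the inducible nitric oxide synthase, which rose by 2.35 with LPS and 2.88 with PIC.

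The promoters of the members were searched for the letters of known motifs. RefSeq windows of 300 bases (250 before to 50 after the start, build GRCm38.p6) matched 69 of the 78 members, and Mrpl4, Mrpl13, Mrpl15, Mrpl19, Mrpl38, Mrpl54, Mrps28, Mrps34 and Mrps35 had none. Searched on both strands, the ETS motif CCGGAAG was in 25 of the 69 windows (36.2%), against 11.9% of 17491 protein-coding genes. The NRF1 motif (GCGC, any base, TGCGC) was in 13 (18.8%), against 6.60%, and the YY1 motif AAGATGGCG in 8 (11.6%), against 1.94%. A window with more than 1 of these motifs was counted once, overlapping or not, and at least 1 stood in 40 of the 69 (58.0%), against 18.6%. The 17491 genes were taken whether or not they are expressed in these cells, and 1 window per gene, the first listed, was used. Whether the members differ in this from other expressed genes was not tested. The E-box CACGTG was in 5 (7.25%), against 7.90%, and the antioxidant response core TGACNNNGC in 14 (20.3%), against 13.2%. The ETS motif was in 14 of the 39 members with a window that were lower with PIC and in 3 of the 6 that were higher, the NRF1 motif in 6 of the 39 and 1 of the 6, and the YY1 motif in 5 and 0. Of the 23 with a window that were not called, 7 had the ETS, 6 the NRF1 and 3 the YY1 motif. A match describes the letters only and is no proof of a bound site.

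The 120 bases before the start are shown for 3 members that both stimuli lowered and 3 that both raised, chosen after values and motifs were seen. The LPS call of Mrpl34 was lost without control replicate 2 (-0.14) or LPS replicate 1 (-0.13) and by DESeq2 (-0.21). Capitals mark the NRF1 and ETS motifs lying wholly in the stretch, read on either strand, and all 6 genes lie on the plus strand of GRCm38.p6. Lower with both stimuli were Mrpl12 (chr11:120484517-120484636, NRF1), Mrps26 (chr2:130563637-130563756, ETS) and Mrpl34 (chr8:71464806-71464925, ETS), and higher with both were Mrpl52 (chr14:54426789-54426908, ETS), Mrpl45 (chr11:97315596-97315715, NRF1 at 2 places) and Mrpl27 (chr11:94653671-94653790, ETS).
Mrpl12: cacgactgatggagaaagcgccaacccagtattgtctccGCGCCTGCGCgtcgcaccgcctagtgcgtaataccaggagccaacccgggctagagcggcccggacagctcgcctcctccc
Mrps26: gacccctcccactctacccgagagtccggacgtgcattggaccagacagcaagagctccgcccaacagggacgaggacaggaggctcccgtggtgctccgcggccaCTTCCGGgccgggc
Mrpl34: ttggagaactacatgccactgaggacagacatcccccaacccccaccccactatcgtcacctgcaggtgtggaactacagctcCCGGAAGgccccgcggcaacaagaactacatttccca
Mrpl52: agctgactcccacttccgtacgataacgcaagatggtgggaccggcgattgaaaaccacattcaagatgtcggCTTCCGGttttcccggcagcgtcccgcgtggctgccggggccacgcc
Mrpl45: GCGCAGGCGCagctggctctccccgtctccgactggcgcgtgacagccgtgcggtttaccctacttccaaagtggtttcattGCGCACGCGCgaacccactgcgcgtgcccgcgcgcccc
Mrpl27: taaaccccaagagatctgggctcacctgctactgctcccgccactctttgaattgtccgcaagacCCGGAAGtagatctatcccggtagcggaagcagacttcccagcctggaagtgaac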

How the data were processed

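Poly(A) RNA-seq was available for 18 libraries of RAW264.7 cells. Per the submitters' processing notes, reads were aligned with HISAT2 2.0.5, transcripts assembled with StringTie 1.3.3b and genes counted with featureCounts 1.5.0-p3. The deposited count table holds raw read counts per gene, and the FPKM values were computed by the authors. Against counts scaled to gene length and library total, these FPKM values carry a further constant per library, from 0.943 (control replicate 3) to 1.12 (PIC replicate 2). The build is named as GRCm38/mm39, which joins the names of different builds. Gene starts in the count table differ from GENCODE vM21, which is on GRCm38, for 77 of the 78 members. Coordinates are therefore given as in the authors' files except for RefSeq promoters, which are on GRCm38.p6.

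Genes were filtered with filterByExpr, which left 13691 of 27701 genes with a count, and 1 quasi-likelihood model over all 18 libraries was fitted with edgeR 4.0.16 (limma 3.58.1, R 4.3.3), with TMM factors and Benjamini-Hochberg adjustment over all genes tested. The 6 comparisons named in the text and the difference of the TBHQ effects in PIC and LPS were contrasts of this model, with a call at an adjusted p below 0.05. Log2 fold changes and p came from this model. Each SE was computed apart from it, from the variance of TMM-scaled log2 counts among the replicate libraries of each group compared. The ratio of a log2 fold change to its SE therefore does not give the p printed beside it. The pipeline was tested on simulated data. Library totals of 14423390 to 18851626 counts set the precision. A level of 3 counts per library was noted as a floor for reading levels, and no step of the fit applied it. Alternatives were median-of-ratios (RLE) factors, library totals, no filter, a mean of at least 50 counts, DESeq2 1.42.0, limma on FPKM with a pseudocount of 1 or 0.1, a model of the compared conditions only, a replicate block and leaving out each library. Tables and figures came from matplotlib 3.10.9, scipy 1.17.1, numpy 2.4.6 and pandas 2.3.3 under Python 3.11.15. Motifs were searched in RefSeq promoters, and 50-base words were compared among GENCODE vM21 transcripts. The 6 pseudogenes of the family were left out by the biotype condition.

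The members and lists were chosen with earlier results of these data known. Named members were, for each comparison, up to 4 with the highest and 4 with the lowest log2 fold change among those called, with a mean of at least 50 counts and libraries of both conditions apart (for the difference of TBHQ effects without the condition on overlap), the 5 with the highest and the 3 with the lowest mean FPKM in the control, and always Mrpl12, Mrpl10, Mrpl11, Mrpl45, Mrps12, Mrpl58, Mrps18a, Mrps18b, Mrps18c, Mrps6, Mrps36 and Mrps30. From each companion list up to 3 called genes with the highest and 3 with the lowest log2 fold change and a mean of at least 50 counts could be named, and any of the components with other names and of the regulators. Mrpl38, Mrps10 and the genes that overlap a member or share its words were chosen after their values were seen.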

Additional observations from a re-analysis of the deposited data

Results flagged for a closer look

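A difference between the effects of TBHQ in PIC and in LPS was called for 2 of 12 tested mitochondrially encoded messenger RNAs (16.7%, against 1.83% of all genes tested), both with a negative value. For mt-Cytb, a subunit of complex III, the log2 fold change was -0.029 for LPS+TBHQ against LPS and -0.20 for PIC+TBHQ against PIC, and the difference was -0.17 (SE 0.049, edgeR adjusted p = 0.026). For mt-Nd1, a subunit of complex I, these values were 0.065 and -0.15, with a difference of -0.21 (SE 0.080, edgeR adjusted p = 0.03). Neither was called under library totals (-0.13 for mt-Cytb and -0.17 for mt-Nd1) or by limma on FPKM values (-0.19 and -0.23). Both were called under the other alternatives with all libraries, mt-Cytb at -0.19 to -0.18 and mt-Nd1 at -0.23 to -0.22. Without single libraries the call of mt-Cytb was lost in 3 of 12 fits and that of mt-Nd1 in 8. Values over all 12 were -0.23 to -0.16 and -0.29 to -0.18. Without LPS replicate 1 none of these messenger RNAs was called. Without LPS replicate 2, mt-Co1, mt-Nd5, mt-Nd2 and mt-Nd6 were called too (-0.23 to -0.18), where 1.7% of all genes were lower. mt-Co1 was also called with RLE factors, at a mean of at least 50 counts, by DESeq2 and with the compared conditions only (all -0.17). Without a filter mt-Co1 (-0.17), mt-Nd5 (-0.17) and mt-Atp6 (-0.55) were called too.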

How the results depend on the processing

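The 33 named members gave 231 log2 fold changes with their calls. Direction and side of the threshold were kept by 224 with RLE factors, 219 without a filter, 220 at a mean of at least 50 counts, 218 with DESeq2, 215 with limma at either pseudocount, 226 with the compared conditions only and 193 with library totals, and by 1477 of 1584 when single libraries were left out. Library totals reversed Mrpl24 (-0.092), Mrpl13 (-0.17), Mrpl30 (-0.16) and Mrps18a (-0.17) for PIC and Mrpl9 (-0.0026) for PIC against LPS, as the median of all genes also fell. The causes of the other changes below were not tested.

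In brackets after a count stands the share of all genes called alike in that fit. Members higher with TBHQ, 3 (14.2%), numbered 5 (14.9%) with RLE factors, 1 (6.22%) without a filter, 5 (19.6%) at a mean of at least 50 counts, 1 (13.4%) with DESeq2 and 5 (15.7%) with the compared conditions only. With library totals the median was -0.24 for LPS and -0.44 for PIC, and 3 members (17.4%) and not 6 (28.6%) were higher with PIC. For PIC+TBHQ against PIC, library totals gave 34 called, 31 higher (24.8%) and a median of 0.14, and lower members, 4 (15.5%), numbered 8 (16.8%) with RLE factors, 9 (21.6%) at a mean of at least 50 counts and 7 with limma at either pseudocount (16% and 15.3%). For PIC against LPS, library totals gave 45 called, 1 higher (7.19%), 44 lower (31.9%) and a median of -0.19, and higher members, 5 (14.9%), numbered 3 (6.94%) without a filter and 8 with limma at either pseudocount (15.3% and 14.6%). For the difference, library totals gave 2 called and 2 higher (1.72%).

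Leaving out single libraries gave these ranges of members called, higher, lower and of the median: TBHQ 10 to 15, 0 to 3, 10 to 13 and -0.071 to -0.050, LPS 35 to 43, 4 to 5, 30 to 39 and -0.17 to -0.12, PIC 41 to 49, 4 to 7, 36 to 45 and -0.24 to -0.17. LPS+TBHQ against LPS gave 11 to 16, 5 to 10, 6 to 8 and -0.0082 to 0.031, PIC+TBHQ against PIC 16 to 19, 10 to 13, 4 to 7 and 0.052 to 0.073, PIC against LPS 8 to 17, 3 to 5, 4 to 14 and -0.082 to -0.028, and the difference 0 to 3, 0 to 2, 0 to 1 and 0.027 to 0.081. Shares of all genes, higher and lower, in these fits were 11% to 12.2% and 11.9% to 12.7% for TBHQ, 21.1% to 22.9% and 20.7% to 21.9% for LPS, 26.1% to 27.7% and 26.2% to 27.8% for PIC, 8.79% to 11.3% and 9.76% to 11% for LPS+TBHQ against LPS, 10.8% to 13.1% and 13.1% to 15.1% for PIC+TBHQ against PIC, 12.8% to 13.6% and 9.65% to 11.2% for PIC against LPS, and 0.514% to 0.820% and 0.615% to 1.70% for the difference.

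Replicate numbers are in the labels, but no pairing is described. A replicate block gave 16 called with TBHQ, 42 with LPS, 52 with PIC, 17 for PIC against LPS and 0 for the difference, as without it. It gave 15 and not 14 for LPS+TBHQ against LPS, 7 higher (11.9%) and 8 lower (12.4%), and 23 and not 19 for PIC+TBHQ against PIC, 17 higher (16.1%) and 6 lower (15.6%). It kept 227 of the 231 named values on their side of the threshold, and none reversed. The call of Mrpl4 with TBHQ was lost (0.12), and calls were gained for Mrpl30 (-0.13) and Mrps30 (-0.20) in PIC+TBHQ against PIC and for Mrpl41 (-0.18) in PIC against LPS. Residual correlation in 45 pairs of libraries with the same number ranged from -0.0444 to 0.0645, and in 90 other pairs from -0.0518 to 0.0510. Mrpl53, at 0 counts, was not tested.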
